A study of Mus musculus with 9 samples.

Results

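The 10 genes described here are myocardin (Myocd) and 9 genes of the smooth muscle contractile apparatus. They were chosen by gene symbol among the 48397 symbols counted, and all 10 passed the filter on low counts that left 16522 genes for testing. Expression was measured by RNA sequencing of total RNA from cardiac outflow tracts of C57BL/6J mouse embryos at embryonic day 12.5. There were 5 libraries of the genotype Nkx2-5delta-enh/delta-enh, in which both alleles lack the enhancer of Nkx2-5 active in the anterior second heart field, and 4 libraries of Nkx2-5+/+ littermates. The labels name no Cre driver or transgene. They do not say whether a library held 1 embryo or several, so p-values measure the spread between these libraries, which may be partly technical. A number in the names of the deposited libraries was read as a litter, which is an assumption. By that number, deletions 1 and 2 and wild types 1 and 2 formed the first litter. Deletions 3 and 4 and wild types 3 and 4 formed the second litter. The number of deletion 5 occurs once, and may be that of the second litter with its digits swapped.

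In the outflow tract, progenitors of the second heart field and cells of the neural crest form the smooth muscle around the base of the aorta and pulmonary trunk. Myocardin is a coactivator that binds serum response factor, which sits on a short DNA motif called the CArG box near many contractile genes. Smooth muscle alpha actin (Acta2) and transgelin (Tagln) are switched on early in differentiation, whereas smooth muscle myosin heavy chain (Myh11) and smoothelin (Smtn) mark more mature cells. Acta2 and Tagln are also made for a time by embryonic heart muscle. Bulk RNA does not show which cells made Myocd either, and a part of heart muscle in its level was not tested.

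The RefSeq promoter table of build GRCm38.p6 held 6 of the 10 genes (Acta2, Cnn1, Myl9, Mylk, Lmod1 and Smtn). Each window was searched for the CArG box over the 250 bases before the annotated start, on both strands, with at most 1 differing base allowed. The sequences below are shown because the box is where the myocardin and serum response factor complex is known to bind. They run 5′ to 3′ on the strand of the gene, with the matched 10 bases in capitals.
Acta2, chr19:34255438-34255467, minus strand: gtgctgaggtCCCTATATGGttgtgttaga
Acta2, chr19:34255388-34255417, minus strand: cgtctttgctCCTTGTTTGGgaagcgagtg
Myl9, chr2:156775283-156775394, plus strand: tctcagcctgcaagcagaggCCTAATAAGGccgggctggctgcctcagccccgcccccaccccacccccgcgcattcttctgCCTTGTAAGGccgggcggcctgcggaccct
Lmod1, chr1:135324604-135324678, plus strand: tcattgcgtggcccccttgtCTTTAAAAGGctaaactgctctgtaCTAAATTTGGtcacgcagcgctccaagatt

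Starts are those of RefSeq, and the GENCODE spans given below begin elsewhere. Both Acta2 stretches, and the searched windows of Mylk and Smtn, lie inside the GENCODE spans of these genes. The Acta2 matches began 84 and 34 bases before the RefSeq start. Those of Myl9 began 161 and 99 bases before it, and those of Lmod1 189 and 164 bases before it. The match of Myl9 farthest from the start was the full motif, and each of the other 5 differed from the motif by 1 base. The windows of Cnn1, Mylk and Smtn held no match with at most 1 differing base. Of 32817 RefSeq windows, 1.47% held the full motif and 18.6% a match with at most 1 differing base. A match describes letters in the window and was not tested as a binding site.

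The 10 genes are protein coding and lie on 7 chromosomes in the GENCODE annotation of mm10. Myocd lies at chr11:65176561-65269989, Acta2 at chr19:34241090-34255590, Tagln at chr9:45929619-45936058 and Smtn at chr11:3517523-3540612, all on the minus strand. Myh11 at chr16:14194535-14291372 and Actg2 at chr6:83512905-83536265 are also on the minus strand. Cnn1 lies at chr9:22099216-22109630, Myl9 at chr2:156775420-156781658, Mylk at chr16:34745210-35002420 and Lmod1 at chr1:135324807-135368065, all on the plus strand. Exons of Tagln overlap those of Pcsk7 and Gm48529 on the other strand, exons of Mylk those of E130310I04Rik and Gm21691, and exons of Smtn those of Gm11946 and Gm11947. The strand setting of the counting is not given in the sources used here, so reads of these partners may be counted with them. Acta2 and Actg2 are close in sequence to each other and to the striated muscle actins Actc1 and Acta1, and counting may split reads between them.

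Gene counts summed to between 27707435 and 49094225 per library, and no pair of libraries of a group agreed within sampling noise. Nkx2-5, the gene whose enhancer was removed, stood at 16.5, 24.4, 17.8, 11.4 and 17.4 CPM (read counts scaled to a common library size) in deletions 1 to 5, against 18.8, 41.9, 45.0 and 39.5 CPM in wild types 1 to 4. For this gene wild type 1 stood among the deletion libraries. The log2 fold change of Nkx2-5 was -1.05 (SE 0.26), and its edgeR quasi-likelihood adjusted p was 0.896 (Benjamini-Hochberg). In the first litter it was at -0.57 (SE 0.38) and in the second at -1.53 (SE 0.39), so its difference was the larger in the litter where those of most members were the smaller. Its own change between litters was not called (interaction -0.96, SE 0.54, edgeR adjusted p = 0.718). Deletion 2 stood apart in neural transcripts: 12 markers of neurons and Schwann cells summed to 3290 CPM in it, to between 131 and 165 CPM in the other deletion libraries, and to between 120.1 and 167 CPM in wild type. Wild type 1 had the lowest sum of 16 cardiomyocyte markers, 10645 CPM, and the highest sum of 10 fibroblast and cushion markers, 19533 CPM. That sum was carried by Col1a1, Col1a2, Col3a1 and Dcn, which were highest in wild type 1 and next highest in wild type 2. Postn (521 CPM), Sox9 (59.0 CPM), Twist1 (10.9 CPM), Vcan (138 CPM) and Pdgfra (179 CPM) were lower in wild type 1 than in any deletion library, so the list did not move as 1 group. In wild type 2 these genes stood at 361, 39.0, 7.89, 159 and 172 CPM, also below every deletion library. The corresponding sums of the deletion libraries ran between 14662 and 19835 CPM for cardiomyocytes and between 11100 and 13278 CPM for fibroblasts and cushion. Wild types 2 to 4 all exceeded that cardiomyocyte range, at 25341, 21321 and 21961 CPM. Their fibroblast and cushion sums were 14951, 11282 and 12185 CPM. Of 11 foregut markers, Shh was at 0 in all libraries, and the list summed to between 4.95 and 15.1 CPM in deletion and between 6.92 and 18.3 CPM in wild-type libraries. The part of these cell types in the values below was not tested, beyond the fits that leave libraries out.

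All 10 smooth muscle genes had a log2 fold change below 0 between deletion and wild type over the 9 libraries, and none passed the test. Their median log2 fold change was -0.34, beside 0.0029 for all 16522 genes, of which 49.4% were below 0. Some marker lists of other cell types also lay mostly below 0. They were cardiomyocyte (15 of 16, median -0.19), epicardial (8 of 10, -0.54), macrophage (7 of 7, -0.46), erythroid (7 of 9, -1.09) and pericyte markers (6 of 8, -0.18). Endothelial markers had 4 of 8 below 0 (0.03), fibroblast and cushion markers 4 of 10 (0.31), and neuron and Schwann markers 0 of 11 (2.93). The edgeR quasi-likelihood test with genotype as the only term and Benjamini-Hochberg adjustment called 0% of all genes, and the adjusted p of the 10 members ran between 0.896 and 0.947. At an unadjusted p under 0.05, 7 of the 10 members, all but Tagln, Cnn1 and Actg2, were lower in deletion libraries, a rule that 2.94% of all genes met in that direction. That count rested on single libraries. Without wild type 1 only Myocd (edgeR unadjusted p = 0.00507) and Myl9 (0.0154) met the rule. Without wild type 2 only Lmod1 (edgeR unadjusted p = 0.0350) and Myh11 (0.0316) did. DESeq2 called 0.237% of the genes it tested and limma-voom called 0.0242% (4 genes), none of them a member. The CPM ranges of the genotypes overlapped for every member. In bulk RNA, fewer smooth muscle cells and less RNA per cell cannot be told apart.

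**Figure D1:**
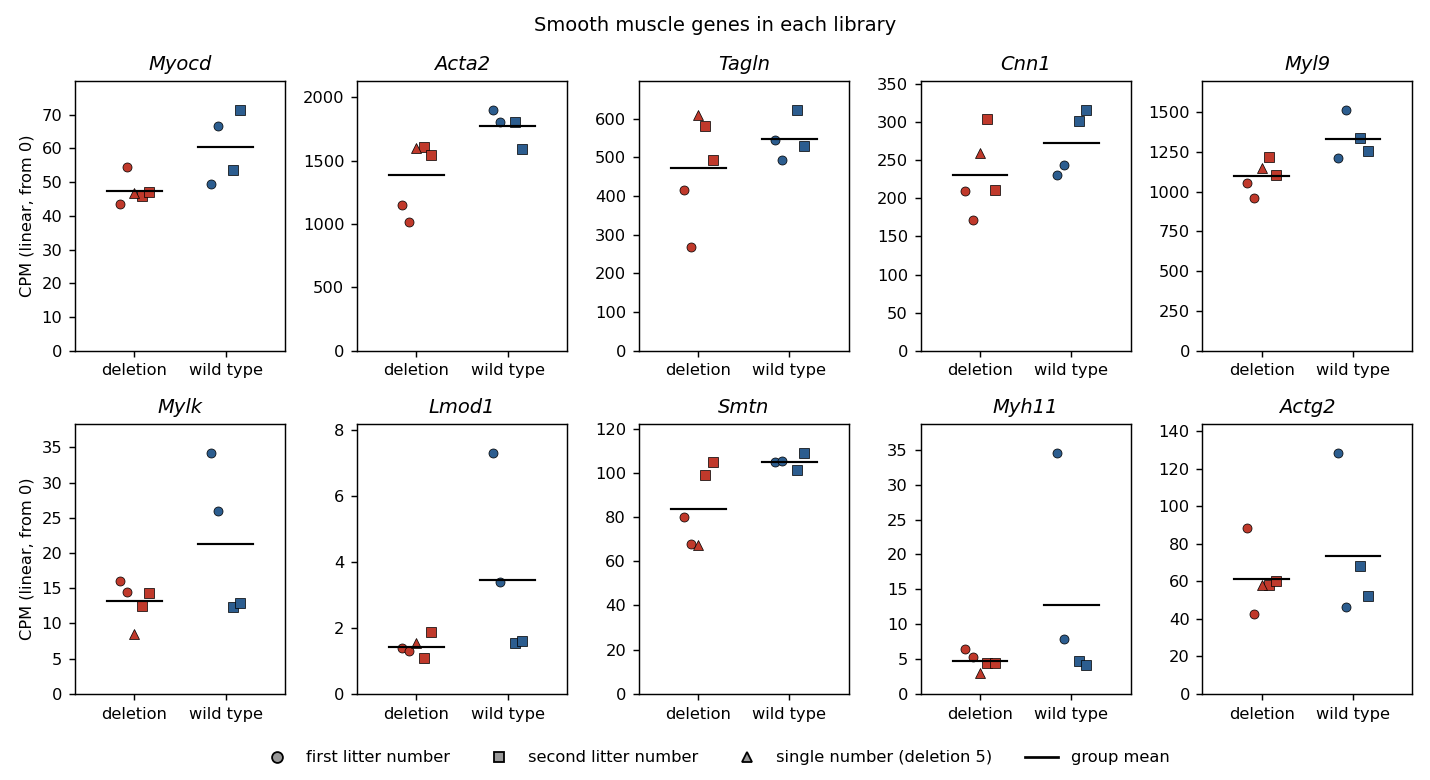
Level of each of the 10 genes in every library (CPM on a linear axis from 0), with deletion libraries left of wild-type libraries. Circles are the first litter, squares the second, the triangle is deletion 5, and the horizontal lines are group means. Wild type 1 stands alone for Myh11 at 34.5 CPM, and the deletion circles lie low for Acta2.

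Myocd, the coactivator, stood at 43.5, 54.4, 45.8, 47.0 and 46.6 CPM in deletions 1 to 5, against 49.3, 66.6, 53.7 and 71.4 CPM in wild types 1 to 4. Deletion 2 was above wild types 1 and 3, and the other 4 deletion libraries lay below every wild type. The means were 47.5 ± 4.12 CPM in deletion (SD, n = 5) and 60.3 ± 10.5 CPM in wild type (SD, n = 4). The log2 fold change was -0.34 (SE 0.13), with an edgeR adjusted p of 0.896. With each library left out in turn it ran between -0.43 and -0.24. Among wild types, Myocd was lowest in wild type 1, which also had the lowest cardiomyocyte sum (10645 CPM). It was highest in wild type 4, whereas that sum was highest in wild type 2. In the first litter Myocd was at -0.24, beside -0.06 for the middle of the cardiomyocyte list. In the second litter the values were -0.43 and -0.39. The part of heart muscle in these Myocd values was not tested.

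Among the early genes, Acta2 encodes the main actin of vascular smooth muscle. It stood at 1148, 1012, 1609.8, 1547 and 1601 CPM in deletions 1 to 5, against 1899, 1804, 1804 and 1595 CPM in wild types 1 to 4. Deletions 1 and 2 were well below every other library, and deletions 3 and 5 lay just above wild type 4. The log2 fold change was -0.36 (SE 0.15, edgeR adjusted p = 0.896). Without deletion 2, the library with neural transcripts, it was -0.26.

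Tagln, which encodes an actin-bundling protein also called SM22 alpha, stood at 414, 267, 581, 492 and 609.6 CPM in deletions 1 to 5, against 545, 494, 623 and 529 CPM in wild types 1 to 4. Deletion 2 had the lowest level, and deletion 5 was above 3 of the 4 wild types. The log2 fold change was -0.21 (SE 0.21, edgeR adjusted p = 0.939), and it was -0.06 without deletion 2. Cnn1 encodes calponin 1, an actin-binding protein that slows the myosin ATPase. Its levels were 209.5, 172, 304, 211 and 259.6 CPM in deletions 1 to 5, against 231, 244, 301 and 316 CPM in wild types 1 to 4. Deletion 3 and deletion 5 lay inside the wild-type range and the other 3 deletion libraries below it. Its log2 fold change was -0.24 (SE 0.17, edgeR adjusted p = 0.910), and it was -0.15 without deletion 2.

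Of the myosin genes, Myl9 encodes the regulatory light chain whose phosphorylation starts contraction. It stood at 1053, 962, 1216, 1105 and 1149.9 CPM in deletions 1 to 5, against 1213, 1514, 1334 and 1256 CPM in wild types 1 to 4. Deletion 3 exceeded wild type 1 by a few CPM, and the other 4 deletion libraries were below all wild types. The log2 fold change was -0.28 (SE 0.11), with an edgeR adjusted p of 0.896. Mylk encodes the kinase that phosphorylates this light chain, and also non-muscle forms of it. Its levels were 16.1, 14.4, 12.5, 14.3 and 8.52 CPM in deletions 1 to 5, against 34.2, 25.9, 12.4 and 12.9 CPM in wild types 1 to 4. Only wild types 1 and 2 stood above the deletion libraries. For Mylk the log2 fold change was -0.69 (SE 0.31, edgeR adjusted p = 0.896), and -0.37 without wild type 1.

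The late genes were low in most libraries. Myh11 stood at 6.38, 5.30, 4.39, 4.41 and 2.97 CPM in deletions 1 to 5, against 34.5, 7.87, 4.73 and 4.11 CPM in wild types 1 to 4. Wild type 1 was more than 4 times the next library, and wild types 3 and 4 lay within the deletion range. Myh11 had a log2 fold change of -1.45 (SE 0.59, edgeR adjusted p = 0.896), and it was -0.25 (SE 0.31) without wild type 1. Lmod1, which encodes the actin filament nucleator leiomodin 1, stood at 1.39, 1.29, 1.08, 1.89 and 1.54 CPM in deletions 1 to 5, against 7.31, 3.40, 1.54 and 1.60 CPM in wild types 1 to 4. Only wild types 1 and 2 were above every deletion library, and these levels rest on between 37 and 69 counts in deletion and between 53 and 263 counts in wild type. Lmod1 had a log2 fold change of -1.27 (SE 0.46, edgeR adjusted p = 0.896), and -0.60 without wild type 1.

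Smtn, whose protein binds actin in contractile smooth muscle, is a late gene with higher levels. It stood at 79.9, 67.6, 99.0, 104.9 and 67.5 CPM in deletions 1 to 5, against 105.0, 105.4, 101 and 109 CPM in wild types 1 to 4. The wild types lay close together, and only deletion 4 reached their range. Its log2 fold change was -0.33 (SE 0.14), with an edgeR adjusted p of 0.896. Actg2 encodes the gamma actin typical of visceral smooth muscle. It stood at 88.6, 42.4, 57.9, 60.1 and 57.9 CPM in deletions 1 to 5, against 128, 46.2, 67.9 and 52.2 CPM in wild types 1 to 4. Wild type 1 was highest and deletion 1 next, and the log2 fold change of -0.26 (SE 0.30, edgeR adjusted p = 0.947) became 0.15 without wild type 1.

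Wild type 1 was the highest library for 5 of the 10 genes (Acta2, Mylk, Lmod1, Myh11 and Actg2), and no deletion library was highest for any. Deletion 2 was the lowest for 5 (Acta2, Tagln, Cnn1, Myl9 and Actg2) and deletion 5 for 3 (Mylk, Smtn and Myh11). With wild type 1 and deletion 2 both left out, a comparison added after the data were seen, 9 of the 10 log2 fold changes were below 0, their median was -0.27 and edgeR called 0 genes. Myocd was then at -0.48 (SE 0.11, edgeR adjusted p = 0.597), Myh11 at -0.29 (SE 0.32) and Actg2 at 0.25. The labels do not say that replicate numbers pair the samples, and the values showed no pairing by number beyond litter. With the number as a block, Mylk was at -0.44, Myh11 at -0.74, Tagln at -0.37 and Actg2 at -0.17, each moved by more than 1.5 times, and no member was called.

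**Figure D2:**
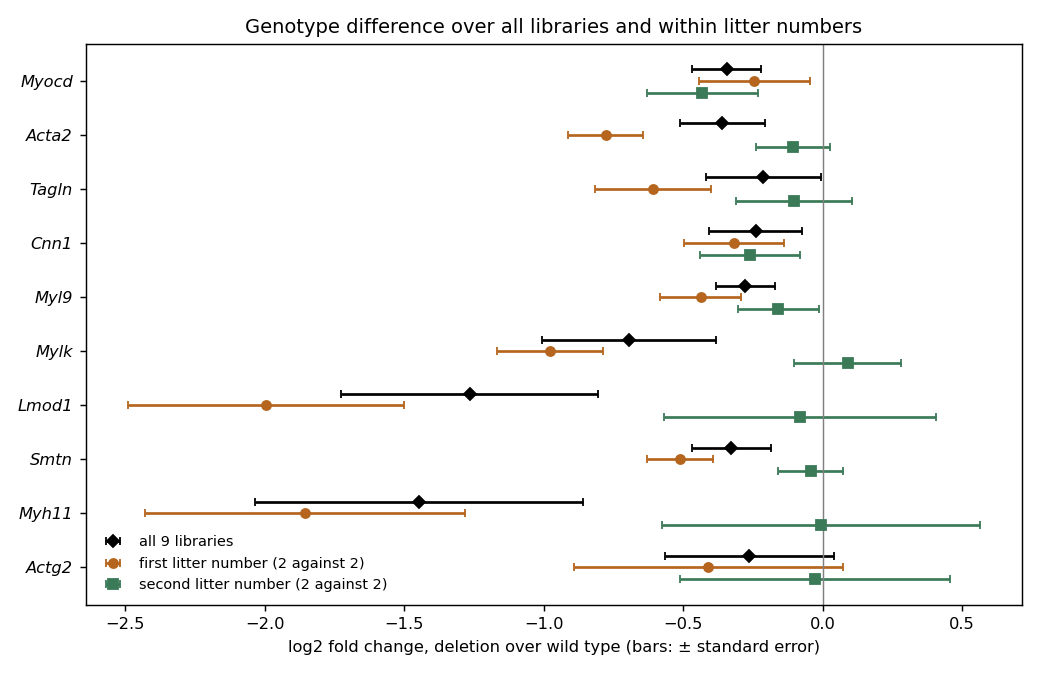
Log2 fold change of deletion over wild type for each gene, with diamonds for all 9 libraries, circles for the first litter and squares for the second. Bars are standard errors of the edgeR fits. The circles of Lmod1, Myh11 and Mylk lie farthest left, at -1.99, -1.86 and -0.98, and the squares of 9 genes lie between -0.26 and 0.09, with Myocd at -0.43.

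Within the first litter, all 10 genes had a log2 fold change below 0, with a median of -0.56 beside -8.0e-05 for all genes, of which 50% were below 0. In 8 of them, all but Myocd and Actg2, both deletion libraries lay below both wild types, an arrangement that 20% of all genes showed in this direction. EdgeR called 0 of the 10 after Benjamini-Hochberg adjustment, against 0.0666% of all genes, and 7 of them were lower at an unadjusted p under 0.05, as were 6.65% of all genes. Acta2 averaged 1080 CPM in deletion and 1852 CPM in wild type of this litter, a log2 fold change of -0.78 (SE 0.13, edgeR adjusted p = 0.0842). Mylk was at -0.98 (SE 0.19, edgeR adjusted p = 0.110), Lmod1 at -1.99 (SE 0.50), Smtn at -0.51 (SE 0.12) and Myh11 at -1.86 (SE 0.57). DESeq2 called these 5 genes within the first litter, with adjusted p of 2.91e-07 for Acta2, 0.00155 for Mylk, 0.0177 for Lmod1, 0.0134 for Smtn and 0.0204 for Myh11, where it called 2.07% of all genes as lower. With no filter on low counts, edgeR called these 5 and Tagln in this litter, and 1.74% of all genes as lower, with 1394 genes called in all. The other 5 alternative settings in which no library was left out called none of these genes in this litter. Limma-voom, among those settings, called 0 of all genes there. Without deletion 1, the only deletion library left in this litter was deletion 2, the library with neural transcripts. EdgeR then gave -0.87 for Acta2, -0.96 for Tagln and -0.64 for Smtn, and called 1.21% of all genes as lower. Calls of that fit rest on 1 deletion library and are not read as a difference between genotypes. Without wild type 1, edgeR gave -0.43 for Myh11, -1.34 for Lmod1, -0.76 for Mylk and -0.74 for Acta2 in this litter. Without deletion 2 it gave -0.33 for Tagln and -0.69 for Acta2.

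Tagln (-0.61, SE 0.21) and Myl9 (-0.44, SE 0.15) had edgeR adjusted p of 0.273 and 0.265 in the first litter. Their DESeq2 adjusted p were 0.0671 and 0.0529, so neither tool called them with the filter on low counts and all libraries of the litter. Cnn1 (-0.32, SE 0.18), Actg2 (-0.41, SE 0.48) and Myocd (-0.24, SE 0.20) had edgeR adjusted p of 0.490 or more. Leaving out 1 library moved Myocd in this litter to between -0.45 (without wild type 1) and -0.01 (without wild type 2), with -0.41 without deletion 2 and -0.09 without deletion 1. Cnn1 moved to between -0.47 (without deletion 1) and -0.18 (without deletion 2). Marker sums of other cell types also differed between the first-litter libraries. The 9 erythroid markers summed to 4369 and 1875 CPM in deletions 1 and 2, against 6614 and 10290 CPM in wild types 1 and 2. Their order was the opposite in the second litter, with 5017 and 3336 CPM in deletions 3 and 4, against 1809.6 and 2210.5 CPM in wild types 3 and 4. The median log2 fold change of these 9 genes was -1.85 in the first litter, where edgeR called 2 of them, and 1.17 in the second. With erythroid genes removed, the members' median over all 9 libraries was -0.33; their part in the values by litter was not tested. The 10 epicardial markers summed to 998 and 575 CPM in deletions 1 and 2, against 1327 and 1347 CPM in wild types 1 and 2. Tcf21 went the other way, at 83.2 and 62.6 CPM against 59.3 and 56.3 CPM. Tbx18 stood at 186 and 114 CPM against 152 and 114 CPM, and every other marker of the list was lower in both deletion libraries. In the second litter the sums were 976 and 938 CPM in deletions 3 and 4, against 899 and 1053 CPM in wild types 3 and 4. Macrophage markers were higher in the first litter in both genotypes, at 184 and 170 CPM in deletions 1 and 2 and at 262 and 266 CPM in wild types 1 and 2.

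Within the second litter, 9 of the 10 genes were below 0, with a median of -0.09 beside 0.0023 for all genes, of which 49.5% were below 0. EdgeR called 0% of all genes there, and none of the 10 had an unadjusted p under 0.05, which 2.65% of all genes did. Deletion libraries lay below both wild types for 2 of the 10, Myocd and Myl9, an arrangement seen in this direction in 19% of all genes. Myocd averaged 46.4 CPM in deletion and 62.5 CPM in wild type of this litter, with a log2 fold change of -0.43 (SE 0.20, edgeR adjusted p = 1). Without wild type 3 it was -0.62, and without wild type 4 -0.21. Myh11 was at -0.01 (SE 0.57), Lmod1 at -0.08 (SE 0.49), Mylk at 0.09 (SE 0.19) and Acta2 at -0.11 (SE 0.13). DESeq2 called 0.182% of all genes in this litter and no member.

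The change of the genotype difference between litters was tested as an interaction, second litter minus first, in the 8 libraries other than deletion 5. EdgeR called 0.0121% of all genes (2 genes, both erythroid markers and both above 0) and no member, and 5 of the 10 members had an interaction above 0 at an unadjusted p under 0.05, a rule met by 4.62% of all genes. For Acta2 it was 0.67 (SE 0.19, edgeR adjusted p = 0.452), and for Mylk 1.07 (SE 0.27, edgeR adjusted p = 0.450). Under DESeq2, which called 1.01% of all genes, Acta2 was called at 0.66 (adjusted p = 0.0211) and Mylk was not (adjusted p = 0.0779). Lmod1 had an interaction of 1.91 (SE 0.69, edgeR adjusted p = 0.533) and Myh11 one of 1.85 (SE 0.80, edgeR adjusted p = 0.620). Without wild type 1 that of Myh11 was 0.42, and with no filter on low counts edgeR called it (1.84, adjusted p = 0.00498) among 747 genes, 0.967% of all genes being called above 0. Myocd was the only member with a negative interaction, -0.19 (SE 0.28), and it turned to 0.01 without wild type 1.

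Libraries of the later numbers, deletion 5 included, were set against the first litter with genotype in the model. EdgeR called 9.84% of all genes, and 2 of the 10 members. Cnn1 was higher in the later litters by a log2 difference of 0.41 (SE 0.11, edgeR adjusted p = 0.0448). Its levels ran between 211 and 316 CPM in the later litters and between 172 and 244 CPM in the first. Mylk was lower in the later litters (log2 difference -0.78, SE 0.22, edgeR adjusted p = 0.0482), at 8.52 to 14.3 CPM against 14.4 to 34.2 CPM in the first. Both calls lay close to the threshold. That of Cnn1 was lost in every fit without 1 library (edgeR adjusted p of 0.0559 to 0.117) except the fit without deletion 4 (0.0272). That of Mylk was kept only without deletion 2 (0.0358) or deletion 4 (0.0340), and its adjusted p was 0.0639 to 0.155 without any other library. DESeq2, which called 16% of all genes, called both and also Tagln (0.45, adjusted p = 0.0373) and Myh11 (-1.37, adjusted p = 0.0116). For edgeR those 2 had log2 differences of 0.46 (SE 0.16, adjusted p = 0.103) and -1.37 (SE 0.46, adjusted p = 0.0918). Myocd differed by 0.01 (SE 0.12) between litters.

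The balance of an early and a late gene was read as the ratio of Acta2 to Myh11 in CPM, given as a description. It was 180.0, 191, 366, 350.4 and 539 in deletions 1 to 5, against 55.0, 229, 381 and 388 in wild types 1 to 4. The 4 libraries of the first litter had the 4 lowest ratios in either genotype, and wild type 1 the lowest of all. For Smtn, log2 CPM minus that of Acta2 showed no such order by litter. It was -3.84, -3.90, -4.02, -3.88 and -4.57 in deletions 1 to 5, and -4.18, -4.10, -4.16 and -3.87 in wild types 1 to 4. For Lmod1 this difference was -9.64 to -8.01 in the first litter and -10.46 to -9.64 in the other libraries. Together the 10 genes took 0.266% to 0.391% of gene counts in deletion libraries, against 0.395% to 0.432% in wild-type libraries. The nearest libraries were deletion 3 at 0.391% and wild type 4 at 0.395%. This sum is carried by Acta2 and Myl9, and each of these 2 overlapped between genotypes. How often sums of other sets of 10 genes separate in this way was not tested.

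**Figure D3:**
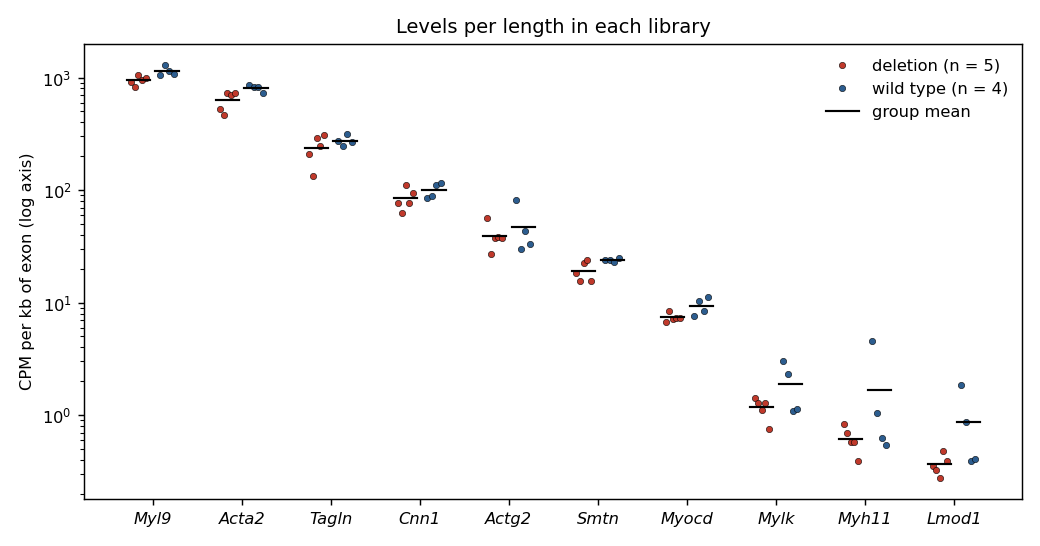
Level per length of the 10 genes in each library, in CPM per kilobase of exon on a log axis, with deletion points left of wild-type points and group means as horizontal lines. Myl9 and Acta2 are at the top, with means over the 9 libraries of 1033 and 709 CPM per kilobase, and Mylk, Myh11 and Lmod1 at the bottom.

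Levels of different genes were compared per kilobase of annotated exon. Over the 9 libraries Myl9 was the most abundant, with a mean of 1033 CPM per kilobase, followed by Acta2 at 709, Tagln at 255, Cnn1 at 91.3 and Actg2 at 42.9. Smtn averaged 21.3, Myocd 8.27, Mylk 1.49, Myh11 1.09 and Lmod1 0.592 CPM per kilobase. The ranges over libraries overlapped between the neighbours Myl9 and Acta2, Cnn1 and Actg2, Mylk and Myh11, and Myh11 and Lmod1. In each library Myl9 was above Acta2 and Cnn1 above Actg2. Myh11 exceeded Mylk only in wild type 1, since Mylk was the higher of the pair in 8 libraries. The other neighbours did not overlap.

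**Figure D4:**
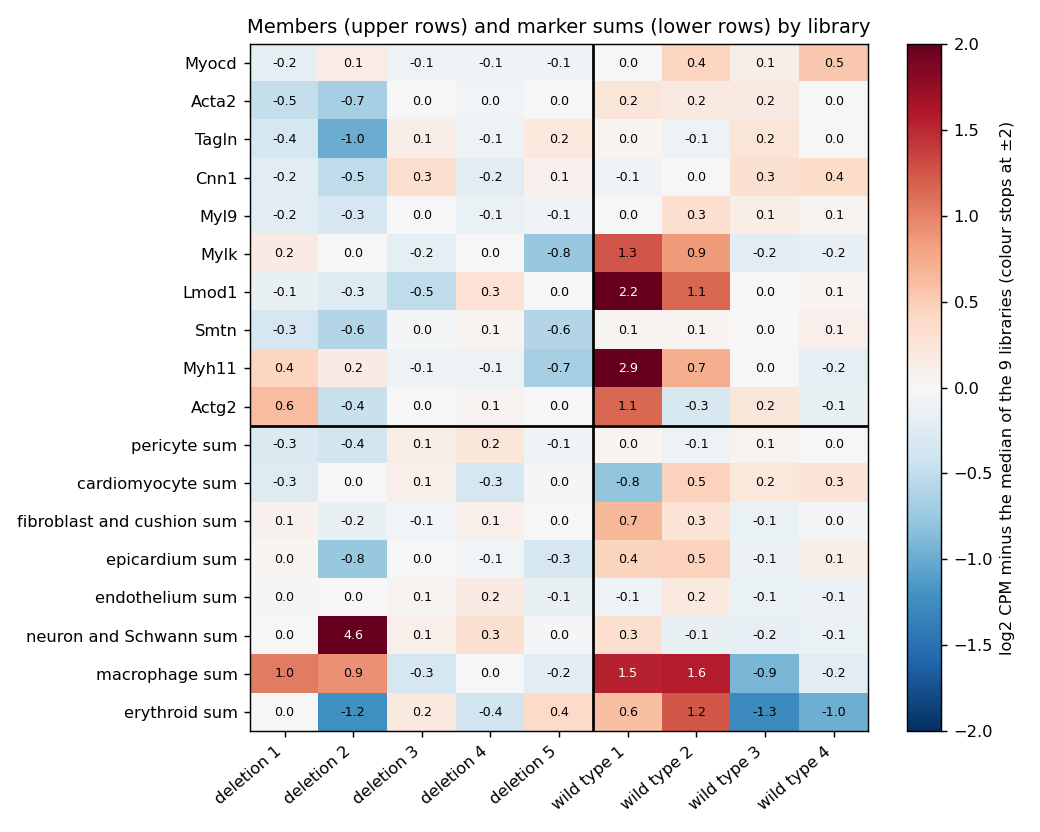
Log2 CPM of each gene (upper rows) and of summed cell type markers (lower rows) in each library, as the difference from the median of the 9 libraries. Deletion libraries are left of the vertical line. Myh11 in wild type 1 is at 2.87, the neuron and Schwann sum in deletion 2 is at 4.62, and the cardiomyocyte sum in wild type 1 at -0.79.

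Some markers of other cell types were highest or lowest in wild type 1. The pericyte gene Rgs5 was between 83.9 and 168 CPM in deletion libraries, and at 265 CPM in wild type 1 and between 94.3 and 139 CPM in the other wild types. The sum of 8 pericyte markers ran between 561 and 847 CPM in deletion and between 675 and 758 CPM in wild-type libraries. Of these 8, only 2 (Rgs5 and Anpep) were highest in wild type 1, and Mcam was lowest there at 139 CPM. Foxf1, a gene of visceral mesenchyme, was at 9.45 CPM in wild type 1 and at 3.23 CPM or less in every other library. Foxf1 was the only one of the 11 foregut markers that was highest in wild type 1. Cardiac alpha actin (Actc1), close in sequence to Acta2, was lowest in wild type 1 at 3146 CPM, where Acta2 was highest. The 8 endothelial markers summed to between 668 and 830 CPM in deletion and between 678 and 849 CPM in wild type. The part of these cell types in the smooth muscle values was not tested.

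Other genes of the program came from 4 lists. Of 24 regulators of smooth muscle differentiation tested, edgeR called none between genotypes, 1 was lower at an unadjusted p under 0.05 (2.94% of all genes), and the median log2 fold change was -0.04. That gene was Csrp2, a LIM protein partner of serum response factor. It stood at 286, 212, 309, 303 and 307 CPM in deletions 1 to 5, against 327, 366, 353 and 359.5 CPM in wild types 1 to 4. All deletion libraries were below all wild types, an arrangement in this direction that 0.974% of all genes showed. Its log2 fold change was -0.31 (SE 0.12), with an edgeR adjusted p of 0.896. Tbx2, a T-box repressor of the outflow tract, was next by p (-0.30, SE 0.17, edgeR adjusted p = 0.896).

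Of 24 signalling genes none was called, with 2 higher (2.32% of all genes) and 1 lower (2.94% of all genes) at an unadjusted p under 0.05 and a median of 0.01. The 2 with the smallest p were ligands of the platelet-derived growth factor family. Pdgfa averaged 22.4 ± 2.95 CPM in deletion (SD, n = 5) and 33.1 ± 7.43 CPM in wild type (SD, n = 4), and its log2 fold change was -0.56 (SE 0.16, edgeR adjusted p = 0.896). Pdgfb averaged 10.3 ± 2.86 CPM in deletion (SD, n = 5) and 6.97 ± 1.66 CPM in wild type (SD, n = 4), with a log2 fold change of 0.56 (SE 0.24, edgeR adjusted p = 0.896). Pdgfa was highest in wild types 1 and 2, and Pdgfb was highest in deletion 2.

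Of 36 genes of the actin and myosin cytoskeleton, 23 were below 0 (49.4% of all genes) with a median of -0.08, none was called, and 5 were lower at an unadjusted p under 0.05 (2.94% of all genes). In the first litter the median of this list was -0.25, and in the second -0.07. Fhl1, a LIM protein of muscle, stood at 287, 309, 192, 228 and 215 CPM in deletions 1 to 5, against 621, 528, 260 and 237 CPM in wild types 1 to 4. As for Mylk, only wild types 1 and 2 stood apart, and the log2 fold change was -0.74 (SE 0.29, edgeR adjusted p = 0.896). Fhl1 was lower in the later litters by the edgeR test (-0.82, adjusted p = 0.00931). Ppp1r12b, a regulatory subunit of myosin phosphatase, had a log2 fold change of -0.48 (SE 0.18, edgeR adjusted p = 0.896). In the litter test, 13 genes of this list were higher and 1 lower in the later litters by edgeR, which called 5.34% of all genes higher and 4.49% lower.

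Of 15 genes of excitation and calcium handling none was called between genotypes, 1 was lower at an unadjusted p under 0.05 (2.94% of all genes) and the median was -0.08. Casq2, a calcium-binding protein of the sarcoplasmic reticulum abundant in heart muscle, averaged 61.8 ± 40.7 CPM in deletion (SD, n = 5) and 151 ± 111 CPM in wild type (SD, n = 4). Its log2 fold change was -1.29 (SE 0.57, edgeR adjusted p = 0.896), and it was lower in the later litters (-1.66, edgeR adjusted p = 0.00361). The spread within each genotype thus includes a difference between litters. Within litters, the log2 fold change of Casq2 was -1.15 (SE 0.29) in the first and -1.32 (SE 0.29) in the second. EdgeR called it in neither. Jph2, which joins the sarcoplasmic reticulum to the cell surface, was at -0.27 (SE 0.13, edgeR adjusted p = 0.896).

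The genes most like Myocd and Myh11 were sought by Pearson's r of log2 CPM over the 9 libraries, among 11297 genes other than the members. These values describe libraries that share genotype, litter and depth. For Myocd the closest were Lama2 (r = 0.940), Syne1 (0.918) and Rab11fip5 (0.917). These r were 0.915, 0.868 and 0.875 without wild type 4, where Myocd was highest. For Myh11 the closest were Pqlc3 (r = 0.959), Tmem159 (0.951) and Shisa4 (0.951). Without wild type 1 they were 0.770, 0.783 and 0.789.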

How the data were processed

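Each library has 1 deposited file, which holds whole-number read counts by gene symbol. RNeasy columns and a low-input SMART-Seq kit were used for RNA and libraries, per the labels' protocols. STAR 2.5.0c, Picard, HTSeq 0.6.0, DESeq2 and mm10 are named in the submitters' processing notes. For their order, the annotation and the strand setting, the sources used here state nothing. The 5 rows that name no gene (20.6% to 23.5% of reads) were left out.

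The tests used edgeR 4.0.16 in R 4.3.3 (quasi-likelihood, robust, TMM factors, filterByExpr with a minimum count of 10, two-sided, Benjamini-Hochberg adjusted p of 0.05 over all genes tested). Models had genotype as the only term, genotype with litter, or 4 cells of genotype and litter. CPM used TMM-scaled sizes. A prior count of 2 was added for log2 CPM. Alternatives were DESeq2 1.42.0, limma 3.58.1 (voom, sample weights), other scalings and filters, blocks, and fits without each library. Simulated counts with known changes were used to check the fits.

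The members and lists were chosen with earlier results of these data known. The genes named are the 10 members, Nkx2-5, up to 4 called genes per list or else the 2 with the smallest p, and the 3 genes most like Myocd and the 3 most like Myh11 with a mean of at least 5 CPM. Marker genes of other cell types (Rgs5, Anpep, Mcam, Foxf1, Actc1, Shh and those of the fibroblast and cushion list) were named after their values were seen.

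Libraries that share a replicate number across genotypes deviated from their group means together (r of 0.242, 0.137, 0.227 and 0.176 for numbers 1 to 4). The main fit did not use the number, which was a block only in alternative fits. Libraries of a litter with different numbers gave r of 0.150 to 0.236, and deletion 2 was closer to wild type 1 (0.236) than to wild type 2 (0.137). The values thus show no pairing by number beyond litter. Deletion 5 has no partner.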

Additional observations from a re-analysis of the deposited data

Results flagged for a closer look

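Myh11 in wild type 1 stood at 34.5 CPM, far from the other 3 wild types, which lay at 7.87 CPM or less. Its gap to the next library made up 0.877 of the range of the wild-type group, above the 95% critical value of Dixon's test for 4 samples. It was the only such value among 20 groups of libraries examined, and chance alone marks about 1 group in 20. The rule was applied to linear CPM only, whereas the fits describe log2 differences. In log2 CPM, Myh11 stood at 5.11, 2.99, 2.26 and 2.06 in wild types 1 to 4, where the gap is a smaller part of the range. Rgs5, Foxf1, Col1a1, Col1a2, Col3a1 and Dcn were also highest in wild type 1, and their part was not tested. Wild type 2 stood next for the collagens and Dcn, at 2762, 2742, 7417 and 623 CPM.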

How the results depend on the processing

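Between genotypes, edgeR called 0 genes, DESeq2 40, limma-voom 4, and DESeq2 with the replicate block 65. The replicate block in edgeR left 0 calls, a members' median of -0.35 and changed no member's call. With the litter number as a block, edgeR also called 0 genes. Without 1 library each, edgeR called 0 to 1 genes and the members' median ran between -0.37 and -0.26.

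The litter test called 1625 genes (DESeq2 3019, and 488 to 1609 without 1 library each). It called 488 without wild type 3, 589 without wild type 4, 704 without deletion 3 and 960.0 without wild type 1. The interaction called 2 genes, 747 with no filter on low counts, 177 by DESeq2, 10 with deletion 5 read as the second litter, and 0 to 241 without 1 library each (241 without deletion 1). Within the first litter, 11 calls became 1394 with no filter, 57 with at least 50 counts in 4 libraries, 733 by DESeq2, 0 by limma-voom, 32 with deletion 5 read as the second litter, and 0 to 680 without 1 library each (680 without deletion 1). Within the second litter, 0 calls became 147 with no filter, 29 by DESeq2 and 0 to 1 without 1 library each. The cause of these moves was not tested. Leaving out a library of either litter leaves 1 library of its genotype there, so those counts within a litter rest on 1 library on that side.

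Some member values near 0 changed sign. Myocd between litters was -0.033 under upper-quartile scaling and -0.0063 under the 50-count filter. Within the second litter Myh11 was 0.00058 under that filter and 0.0047 by limma-voom, and Mylk -0.10 with deletion 5 added. Actg2 between genotypes was 0.25 without wild type 1 and deletion 2. Without 1 library each, Actg2 ran between -0.43 and 0.15 for genotype, -1.04 and 0.50 in the first litter, -0.20 and 0.18 in the second, -0.53 and 1.01 for the interaction, and -0.56 and 0.025 for litter. Within the second litter Lmod1 ran between -0.53 and 0.26, Myh11 -0.10 and 0.10, Mylk -0.0078 and 0.18, Smtn -0.10 and 0.011, and Tagln -0.23 and 0.020. The interaction ran between -0.25 and 0.28 for Cnn1 and -0.42 and 0.032 for Myocd, and the litter difference of Myocd between -0.089 and 0.11. The litter call of Cnn1 was lost under upper-quartile scaling (edgeR adjusted p = 0.0657) and by limma-voom (0.0574), and that of Mylk without any of wild types 1 to 4 or deletions 1, 3 and 5 (0.0639 to 0.155). By their lowest counts, depth limits Lmod1 and Myh11 most among the members, with 37 to 263 and 112 to 1242 counts per library.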
